A study of Mus musculus with 16 samples.

Results

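The genes described here encode surface receptors and signalling proteins by which follicular and marginal zone B cells of the mouse spleen are told apart and held in place: Cr2 (complement receptor CD21), Fcer2a (the low-affinity IgE receptor CD23), Cd55, Cd1d1, Icosl, Notch2, Dtx1, S1pr1, S1pr3 and Cd38. The members on the array were all probe sets whose platform annotation names 1 of these 10 genes and no other. That gave 18 probe sets of 9 genes, of 45101 probe sets in all and 18194 genes with a probe set of their own. No annotated probe set carried the name Cd38, which is not analysed here, and 1 probe set assigned to Cd55 together with another gene was left out. Of the 18 probe sets, 17 passed a filter on low values; the S1pr3 probe set 1460661_at did not.

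RNA was measured on 16 Affymetrix arrays, 4 in each of 4 groups, from mice that were 5 months old. The cells were peritoneal B1a cells and splenic CD43- B cells (Bs), each prepared from C57BL/6 mice (B6) and from B6.Sle2c1, a congenic strain on the B6 background (called Sle2c1 here) whose introgressed lupus segment holds Cdkn2c, the gene of the cell cycle inhibitor p18. For B1a cells, adherence for 2 h in 10% serum took out macrophages, Thy1.2 and CD3ε marked T cells for removal, and CD5 served for positive selection. Per the labels, 80% of a B1a preparation were B220int CD5+ cells and over 90% of a Bs preparation were B220hi cells. Both strains and both cell types went through RNA amplification before hybridisation (NuGEN Ovation). The labels give no sex, no day of preparation and no statement that the 4 arrays of a group came from separate mice, so that p-values measure the spread between these arrays alone.

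Follicular B cells recirculate through the follicles of spleen and lymph nodes and carry CD23, whereas marginal zone B cells stay at the rim of the splenic white pulp, carry high CD21 and CD1d, and need Notch2 to form. CD43- splenic B cells are a mixture of both, with immature transitional cells, and the arrays do not separate them. B1a cells are CD5-bearing B cells that persist in the peritoneal cavity and are known for little CD21 and CD23 at the surface.

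The windows before the transcription starts of Cr2, Fcer2a and Cd55, genes that were higher in Bs than in B1a cells, are shown. They were searched for a letter pattern of the Notch pathway and for another of Krüppel-like factors, which are known regulators of B cell subsets. Each window holds the 250 bases before the start (RefSeq, GRCm38.p6, written 5′ to 3′ on the gene's strand). Cr2 lies on chr1:195176720-195176969 (minus strand), Fcer2a has 3 annotated starts of which the second lies on chr8:3690862-3691111 and the third on chr8:3690391-3690640 (both minus strand), and Cd55 lies on chr1:130462745-130462994 (minus strand). Capitals mark TGGGAA, a core letter pattern bound by the Notch partner RBPJ, on either strand in the Cr2 and Fcer2a windows, and CACCC, a core pattern of Krüppel-like factors, on either strand in the Cd55 window.
Cr2: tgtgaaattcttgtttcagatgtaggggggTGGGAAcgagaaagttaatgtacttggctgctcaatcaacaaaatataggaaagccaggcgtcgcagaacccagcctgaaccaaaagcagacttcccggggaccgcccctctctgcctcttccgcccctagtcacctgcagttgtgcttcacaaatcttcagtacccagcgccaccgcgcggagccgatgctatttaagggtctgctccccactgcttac
Fcer2a, at the second start: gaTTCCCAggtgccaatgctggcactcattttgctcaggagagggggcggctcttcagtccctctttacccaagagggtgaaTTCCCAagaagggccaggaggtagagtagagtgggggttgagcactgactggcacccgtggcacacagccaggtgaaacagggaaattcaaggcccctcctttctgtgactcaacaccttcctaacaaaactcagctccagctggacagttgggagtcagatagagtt
Fcer2a, at the third start: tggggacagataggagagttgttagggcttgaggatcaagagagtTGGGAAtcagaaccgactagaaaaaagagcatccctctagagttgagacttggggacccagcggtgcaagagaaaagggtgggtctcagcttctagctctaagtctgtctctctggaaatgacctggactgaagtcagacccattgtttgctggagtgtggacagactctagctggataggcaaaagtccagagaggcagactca
Cd55: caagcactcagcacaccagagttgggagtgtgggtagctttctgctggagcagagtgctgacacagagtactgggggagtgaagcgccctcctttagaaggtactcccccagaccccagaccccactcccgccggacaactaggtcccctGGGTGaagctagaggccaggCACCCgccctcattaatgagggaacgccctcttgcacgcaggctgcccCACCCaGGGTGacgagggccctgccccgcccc
The Cr2 window held 1 match to TGGGAA, 220 bases before the start. In Fcer2a, 2 matches lay in the window of the second start, 248 and 168 bases before it, and 1 in that of the third, 205 bases before it; the window of the first start held none. TGGGAA was in 21.6% of 32851 promoter windows of the same length. It was not in these windows of Cd55, Notch2, Dtx1, Icosl or S1pr3. The Cd55 window held 4 matches to CACCC, 100, 80, 32 and 26 bases before the start. CACCC was in 52.0% of all windows, and also in those of Cr2 (1 match, whose letters overlap the TGGGAA match), Notch2 (1), Dtx1 (1), Icosl (2), S1pr3 (2) and the starts of Fcer2a (1, 2 and 1). Cd1d1 and S1pr1 had no window in the table used. A match to letters is a description and was not tested for binding.

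The deposited values are a score that behaves like a logarithm of the signal, with a base, centring and scaling that are not given in the sources used here. Levels and differences are therefore in units of that score, never in folds, and levels of different probe sets are not compared. On each B1a array 27.6% to 35.6% of the probe sets shared its lowest value, which carries no level. On each Bs array 22.8% to 25.8% did. The hybridisation controls bioB, bioC, bioD and cre had higher medians on the Bs than on the B1a arrays of either strain. For bioC these were 4.11 against 3.61 in B6 and 4.13 against 3.71 in Sle2c1 mice. The gap was smallest for cre, 4.86 against 4.75 and 4.77 against 4.69. The part of such shifts in the member differences was not tested. For means and tests, anything under 0.495 was set to 0.495, called the floor, which is the 40th percentile of a typical (median) array. Arrays of 1 group did not all lie together: on the first principal component (46.4% of the variance) B6 Bs array 1 lay at -8.4 and B6 Bs array 3 at 70.3, and Sle2c1 B1a array 4 at -7.6. Member calls that changed without these 3 arrays are given with both values. Among 9 measured B cell markers the mean level ranged from 2.94 to 3.02 on the B1a arrays and from 3.06 to 3.19 on the Bs arrays. Of 10 measured B1 markers, 6 were lower in Bs than in B1a cells of B6 mice and 5 in Sle2c1 mice, led by Ctla4 (-1.79 in B6), Plscr1 (-1.65) and Zbtb32 (-1.57). Cd5 itself, the selection marker, was at or below the floor on all 8 Bs arrays and averaged 1.08 ± 0.304 in B6 B1a and 0.75 ± 0.342 in Sle2c1 B1a cells (SD, n = 4 each), close to the floor.

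**Figure D1:**
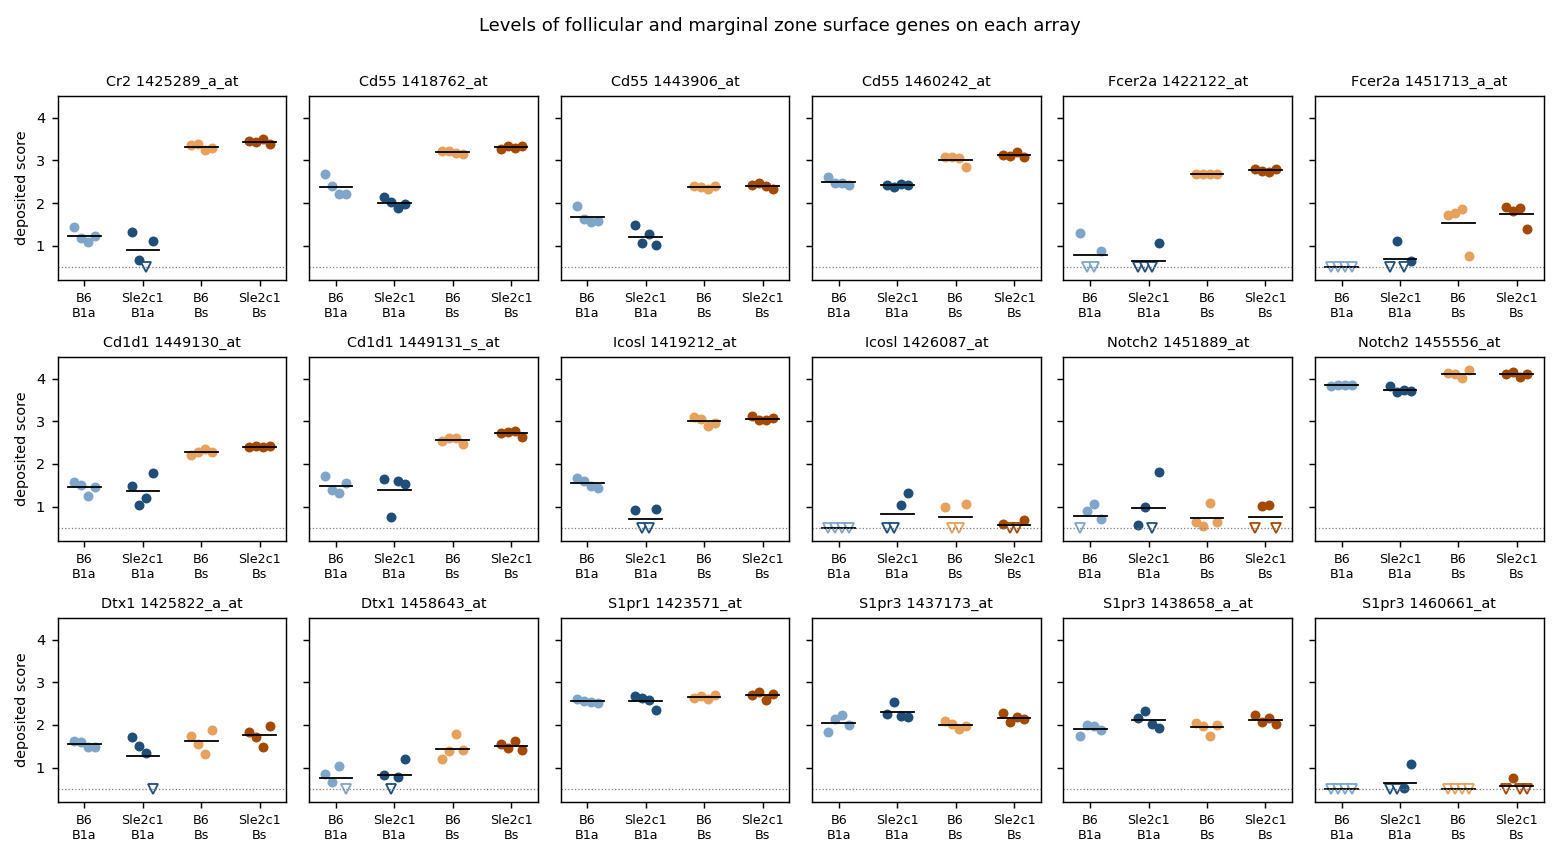
Deposited score of the 18 probe sets on each of the 16 arrays (vertical axis; 4 arrays a group along the horizontal axis). Filled circles are measured levels, open triangles values at or below the floor (dotted line), and bars the mean of the 4 arrays after flooring. The Cr2 arrays of B1a cells lie at or below 1.43 and those of Bs cells at or above 3.24.

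The question behind the comparison of cell types is how far B1a cells carry the surface program of splenic B cells in each strain. Cr2, Cd55, Fcer2a, Cd1d1, Icosl, Notch2 and Dtx1 were higher in Bs than in B1a cells, in B6 as in Sle2c1 mice. For Icosl, Notch2 and Dtx1 this held for a single probe set each, and the other tested probe set did not pass in either strain. S1pr1 and S1pr3 did not pass the test in either strain. In counts, 11 of the 17 tested probe sets were higher in B6 mice and 11 in Sle2c1 mice (limma over 35032 probe sets, Benjamini-Hochberg adjusted p under 0.05), where 10.7% and 13.7% of all tested probe sets were higher. None was lower; 9.21% and 11.1% of all were. The median member difference was 0.69 in B6 and 0.71 in Sle2c1 mice, against 0.03 over all tested probe sets in both. For these 11 probe sets every Bs array lay above every B1a array of the same strain, which held for 10.9% of all tested probe sets in B6 and 14.4% in Sle2c1 mice. Both comparisons are between a spleen and a peritoneal preparation made in different ways, so that tissue, purification and cell type cannot be told apart. In a bulk preparation, fewer cells of a type and less RNA per cell cannot be told apart either.

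Cr2 encodes CD21, which takes up complement-coated antigen and lowers the threshold of the B cell receptor. Its probe set 1425289_a_at read 1.43, 1.19, 1.08 and 1.22 on the 4 B6 B1a arrays and 1.32, 0.66, 0.36 and 1.12 on the Sle2c1 B1a arrays. On the B6 Bs arrays it read 3.37, 3.38, 3.24 and 3.29, and on the Sle2c1 Bs arrays 3.46, 3.43, 3.49 and 3.38. The cell types were far apart in both strains, and 1 of the 4 Sle2c1 B1a arrays lay below the floor. The difference between Bs and B1a was 2.09 in B6 mice (SE 0.143, limma adjusted p = 9.83e-08) and 2.54 in Sle2c1 mice (SE 0.143, limma adjusted p = 1.02e-08). Within an array the probe set ranked at a median percentile of 61.6 among all probe sets in B6 B1a and 97.5 in B6 Bs cells, and at 46.3 and 98.1 in Sle2c1 mice.

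Cd55 encodes decay-accelerating factor, a membrane inhibitor of complement activation. All 3 of its probe sets were higher in Bs cells in both strains. Probe set 1418762_at read 2.68, 2.40, 2.21 and 2.21 in B6 B1a, 2.15, 2.02, 1.89 and 1.97 in Sle2c1 B1a, 3.22, 3.23, 3.17 and 3.14 in B6 Bs and 3.27, 3.33, 3.28 and 3.34 in Sle2c1 Bs cells. B6 B1a array 1 was the highest B1a array, and the Sle2c1 Bs arrays were the highest of all. The cell types differed by 0.82 in B6 (SE 0.0925, limma adjusted p = 2.05e-05) and by 1.30 in Sle2c1 mice (SE 0.0925, limma adjusted p = 1.28e-07). Probe set 1443906_at gave 0.70 and 1.20, and 1460242_at 0.52 and 0.71, in the same order of strains. With 1460242_at the 8 B1a arrays ran from 2.38 to 2.62 and the 8 Bs arrays from 2.84 to 3.19.

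Fcer2a encodes CD23, which binds IgE and is a hallmark of follicular B cells. Probe set 1422122_at read 1.29, 0.44, 0.49 and 0.88 in B6 B1a cells, with 2 arrays at or below the floor. In Sle2c1 B1a cells 3 of the 4 arrays were at or below it and the fourth read 1.06. B6 Bs arrays read 2.67, 2.69, 2.67 and 2.67 and Sle2c1 Bs arrays 2.79, 2.75, 2.72 and 2.79. The Bs arrays thus lay within 0.12 of each other, while the B1a levels spread from the floor to 1.29. The difference was 1.89 in B6 (SE 0.16, limma adjusted p = 9.87e-07) and 2.13 in Sle2c1 mice (SE 0.16, limma adjusted p = 2.31e-07). With 3 Sle2c1 B1a arrays at or below the floor, 2.13 is a minimal size. Without flooring the B6 difference was 1.90, but its call ended (limma adjusted p = 0.329). The error shared by all groups then took in Sle2c1 B1a values of -5.68, -0.43 and -5.52. The second probe set, 1451713_a_at, was at the lowest value on all 4 B6 B1a arrays and read 1.72, 1.76, 1.85 and 0.76 in B6 Bs cells, so that the B6 difference of 1.03 is a lower bound (limma adjusted p = 0.0033). Without B6 Bs arrays 1 and 3 and Sle2c1 B1a array 4 together it was 0.77, with an adjusted p of 0.054. In Sle2c1 mice it was 1.07 (limma adjusted p = 0.00193).

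Cd1d1 encodes CD1d, which presents lipids to natural killer T cells and is high on marginal zone B cells. Probe set 1449130_at read 1.58, 1.50, 1.26 and 1.47 in B6 B1a, 1.48, 1.03, 1.21 and 1.78 in Sle2c1 B1a, 2.22, 2.29, 2.35 and 2.27 in B6 Bs and 2.39, 2.41, 2.40 and 2.42 in Sle2c1 Bs cells. The 4 Sle2c1 Bs arrays were the tightest group (SD 0.0129) and the Sle2c1 B1a arrays the widest (SD 0.327). Bs cells were higher by 0.83 in B6 (SE 0.124, limma adjusted p = 0.000274) and by 1.03 in Sle2c1 mice (SE 0.124, limma adjusted p = 2.79e-05). Probe set 1449131_s_at, of a type that may share sequence with a related gene, gave 1.06 and 1.34.

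Icosl encodes the ligand of the T cell costimulator ICOS. Probe set 1419212_at read 1.68, 1.59, 1.48 and 1.44 in B6 B1a cells. In Sle2c1 B1a cells it read 0.93 and 0.95 on arrays 1 and 4 and was at or below the floor on arrays 2 and 3. In Bs cells it read 3.11, 3.05, 2.89 and 2.95 (B6) and 3.12, 3.03, 3.02 and 3.08 (Sle2c1). The Bs arrays of the strains overlapped and the B1a arrays did not. The difference between cell types was 1.45 in B6 (SE 0.106, limma adjusted p = 1.93e-07) and 2.35 in Sle2c1 mice (SE 0.106, limma adjusted p = 9.65e-10). With Sle2c1 B1a arrays 2 and 3 at or below the floor, 2.35 is a minimal size. Without flooring the B6 difference was again 1.45, but its call ended (limma adjusted p = 0.506). No B6 array of this probe set lay at the floor. The error shared by all groups then took in -5.65 and -5.52 on Sle2c1 B1a arrays 2 and 3. The other Icosl probe set, 1426087_at, was above the floor on 6 of 16 arrays and gave 0.26 (limma adjusted p = 0.318) and -0.27 (limma adjusted p = 0.277).

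Notch2 encodes the receptor on which marginal zone B cell formation depends. Probe set 1455556_at read 3.83, 3.85, 3.86 and 3.85 in B6 B1a, 3.82, 3.69, 3.73 and 3.70 in Sle2c1 B1a, 4.14, 4.12, 4.02 and 4.20 in B6 Bs and 4.11, 4.15, 4.03 and 4.12 in Sle2c1 Bs cells. It ranked between percentiles 99.3 and 99.9 on every array. Bs cells were higher by 0.27 in B6 (SE 0.0547, limma adjusted p = 0.00284) and by 0.37 in Sle2c1 mice (SE 0.0547, limma adjusted p = 0.000195). The B6 call ended with each array centred on its median (0.25, adjusted p = 0.193). A second probe set, 1451889_at, stayed between the floor and 1.81 on all arrays and gave -0.06 and -0.21 (limma adjusted p = 0.896 and 0.583).

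Dtx1 encodes Deltex1, a cytoplasmic protein of the Notch pathway that Notch signalling induces in marginal zone B cells. Its probe sets did not give the same picture. Probe set 1458643_at read 0.84, 0.66, 1.03 and 0.48 in B6 B1a cells against 1.19, 1.39, 1.78 and 1.41 in B6 Bs cells. In Sle2c1 mice, 3 B1a arrays read 0.82, 0.78 and 1.21 and array 2 was at the floor, against 1.56, 1.46, 1.63 and 1.40 in Bs cells. The difference was 0.69 in both strains (SE 0.155, limma adjusted p = 0.0064 in B6 and 0.00497 in Sle2c1). Without flooring the difference was 0.69 in B6 and 2.22 in Sle2c1 mice, and the call ended in both (limma adjusted p = 0.77 and 0.199). The error shared by all groups then took in -5.65 on Sle2c1 B1a array 2. Probe set 1425822_a_at read 1.48 to 1.62 in B6 B1a and 1.31 to 1.87 in B6 Bs cells, ranges that overlap, and gave 0.07 in B6 (SE 0.209, 95% confidence interval -0.37 to 0.52, limma adjusted p = 0.851) and 0.49 in Sle2c1 mice (0.04 to 0.94, limma adjusted p = 0.103). Without Sle2c1 B1a array 1 the second value was 0.64 and passed (adjusted p = 0.0419).

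S1pr1 and S1pr3 encode receptors of sphingosine-1-phosphate that guide B cells out of tissues and into the marginal zone. S1pr1 (1423571_at) read 2.61, 2.56, 2.53 and 2.52 in B6 B1a, 2.67, 2.63, 2.59 and 2.36 in Sle2c1 B1a, 2.62, 2.67, 2.60 and 2.71 in B6 Bs and 2.71, 2.76, 2.58 and 2.72 in Sle2c1 Bs cells. The groups overlapped, with a difference of 0.10 in B6 (95% confidence interval -0.05 to 0.24, limma adjusted p = 0.373) and 0.13 in Sle2c1 mice (-0.02 to 0.28, limma adjusted p = 0.19). A difference as large as that of any of the 11 higher probe sets lay outside the B6 interval. S1pr3 had a pair of measured probe sets. The first, 1437173_at, spanned 1.83 to 2.54 on B1a arrays and 1.91 to 2.29 on Bs arrays, with differences of -0.05 in B6 (-0.26 to 0.16) and -0.13 in Sle2c1 mice (-0.34 to 0.09). The second, 1438658_a_at, gave 0.04 (-0.17 to 0.25) and 0.01 (-0.20 to 0.22). Probe set 1460661_at of S1pr3 was above the floor on 3 of 16 arrays and was not tested.

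**Figure D2:**
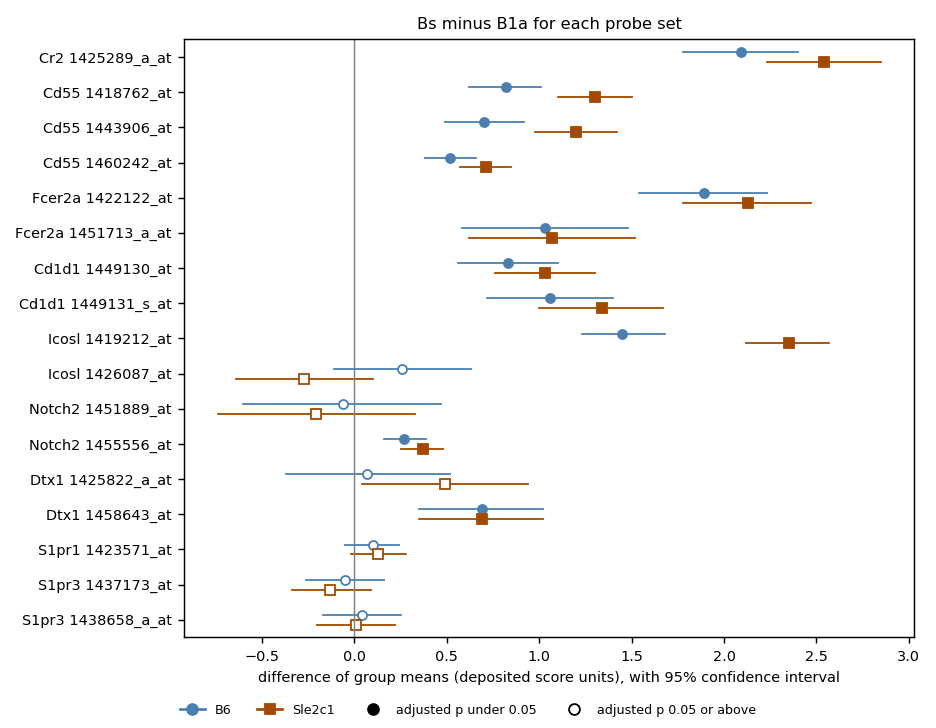
Difference between Bs and B1a group means for the 17 tested probe sets, in score units, with 95% confidence intervals from limma (horizontal axis); circles are B6, squares Sle2c1 mice, and filled marks passed an adjusted p of 0.05. Cr2, Fcer2a and Icosl lie farthest to the right, up to 2.54 for Cr2 in Sle2c1 mice, and the S1pr1 and S1pr3 intervals include 0.

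In Bs cells no member passed the test between the strains: 0 of 17 probe sets (limma, adjusted p under 0.05). Of all tested probe sets 0.131% passed. At an unadjusted p under 0.05 in the same fit it was 0 of 17 members and 1209 of all 35032 tested probe sets. Differences were small and mostly positive, 15 of 17 above 0 with a median of 0.11, against a median of 0.01 over all tested probe sets. The Sle2c1 Bs arrays lay above all B6 Bs arrays for 4 of 17 probe sets, Cd55 1418762_at, Fcer2a 1422122_at and both Cd1d1 probe sets, where 1.24% of all tested probe sets did so. The reverse order occurred for 0 members and for 1.10% of all. The 4 differences were 0.12 (Cd55, SE 0.0925), 0.09 (Fcer2a, SE 0.16), 0.12 (Cd1d1 1449130_at, SE 0.124) and 0.17 (Cd1d1 1449131_s_at, SE 0.159). Each had an exact two-sided permutation p of 0.0286, the smallest that 4 arrays against 4 can give, unadjusted.

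For Cd55 1418762_at, Fcer2a 1422122_at, Cr2 and both Cd1d1 probe sets the B1a arrays spread more than the Bs arrays. Not every member did so, and Notch2 1455556_at had an SD of 0.0126 in B6 B1a and 0.0748 in B6 Bs cells. The shared fit takes its error from all 16 arrays. With the model restricted to the Bs arrays (8) the SEs were 0.0312 for Cd55 1418762_at, 0.0242 for Fcer2a 1422122_at, 0.0313 and 0.0483 for the Cd1d1 probe sets and 0.0421 for Cr2. The SE of Cd55 1460242_at was 0.0616 there and 0.0658 in the shared fit, and that of Fcer2a 1451713_a_at rose from 0.211 to 0.265. With these 8 arrays, 6 of 17 members and 4.56% of all tested probe sets reached an unadjusted p under 0.05. After adjustment 0 members passed (lowest limma adjusted p = 0.622). Same-numbered Bs arrays of the strains deviated together, though differently numbered arrays were not compared. With the replicate number as a block within Bs, 6 of 17 members and 7.62% of all tested probe sets had an unadjusted p under 0.05. In that block fit 0 members passed after adjustment (lowest limma adjusted p = 0.372). In all 4 same-numbered pairs the Sle2c1 array was higher for 10 of 17 members, where 7.24% of all tested probe sets were higher in 4 of 4 pairs; 0 members and 4.59% of all were lower in 4 of 4. The 10 were Cr2 (by 0.05 to 0.25), Cd55 1418762_at (0.05 to 0.20) and 1460242_at (0.01 to 0.25), both Fcer2a, both Cd1d1 and both tested S1pr3 probe sets, and Dtx1 1425822_a_at (0.09 to 0.17). Notch2 1455556_at was higher in 2 pairs and lower in 2.

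On within-array percentiles, which no scaling of an array moves, 6 of 17 members separated the strains, all higher in Sle2c1 Bs cells, where 1.73% of all tested probe sets were higher in that way and 1.57% lower. Between these arrays 0 of 13 macrophage markers passed the test of the strains. Their mean level lay between 1.41 and 1.54 on the B6 Bs and between 1.18 and 1.37 on the Sle2c1 Bs arrays, and the median difference was -0.16. Cd14, C1qa, C1qb and C1qc were at or below the floor on all Sle2c1 Bs arrays. In B6 Bs cells they averaged 0.52, 0.92, 1.35 and 0.61, so that Cd14 and C1qc were close to the floor there too. The mean of 9 B cell markers ranged from 3.06 to 3.19 and from 3.10 to 3.15. The part of these cells in the member differences was not tested.

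In B1a cells the strains differed in 2 of the 9 genes. Icosl and Cd55 were lower in Sle2c1 than in B6 B1a cells, with 3 of 17 probe sets lower and 0 higher (limma, adjusted p under 0.05), where 1.64% of all tested probe sets were lower and 1.88% higher. Of all calls in this comparison 53.4% were higher, and 42.4% to 43.9% under the other scalings. Icosl 1419212_at fell by 0.83, with group means of 1.55 ± 0.109 in B6 and 0.72 ± 0.257 in Sle2c1 B1a cells (SD, n = 4 each; SE of the difference 0.106, limma adjusted p = 0.000403). All 4 Sle2c1 arrays lay below all 4 B6 arrays, as for 4 of 17 members (these 3 probe sets and Notch2 1455556_at) and 4.28% of all tested probe sets; 0 members and 4.08% of all lay above. For Icosl, with 2 Sle2c1 arrays at the floor, the size is a minimum. The call held without each array in turn and ended without flooring (adjusted p = 0.203), where the value is set by the lowest values of arrays 2 and 3.

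Cd55 1443906_at read 1.92, 1.62, 1.56 and 1.58 in B6 and 1.49, 1.06, 1.27 and 1.02 in Sle2c1 B1a cells, a difference of -0.46 (SE 0.101, limma adjusted p = 0.0209). Cd55 1418762_at, whose values are given above, fell by 0.37 (SE 0.0925, limma adjusted p = 0.0434). The third Cd55 probe set, 1460242_at, did not pass (-0.07, 95% confidence interval -0.21 to 0.07, limma adjusted p = 0.613). Both calls rested on single arrays. B6 B1a array 1 had the highest Cd55 level of its group, and was the only highest array of that group for 10 of the 17 members. Without it the adjusted p was 0.0621 for 1443906_at and 0.0838 for 1418762_at. The call of 1443906_at also ended without Sle2c1 B1a array 2 (0.0591) or 4 (0.0542). That of 1418762_at ended without B6 B1a array 2 (0.11) or Sle2c1 B1a array 2 (0.0775), 3 (0.102) or 4 (0.0891). A fit of the 8 B1a arrays alone gave 0.181 and 0.231, and leaving out the 3 arrays that stand apart gave 0.0774 and 0.116.

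The second Icosl probe set, 1426087_at, gave 0.34 in the opposite direction (limma adjusted p = 0.336), from levels mostly at or below the floor. Cr2 differed by -0.33 between the strains in B1a cells (95% confidence interval -0.64 to -0.02, limma adjusted p = 0.252). Without Sle2c1 B1a array 1 it was -0.47 and passed (adjusted p = 0.0442). Both tested S1pr3 probe sets had positive values that did not pass, 0.24 (limma adjusted p = 0.217) and 0.21 (limma adjusted p = 0.298). Fcer2a, Cd1d1 and S1pr1 gave -0.15, -0.08 and 0.01 with probe sets 1422122_at, 1449130_at and 1423571_at, with limma adjusted p between 0.663 and 0.974. Notch2 1455556_at gave -0.11 (limma adjusted p = 0.309).

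**Figure D3:**
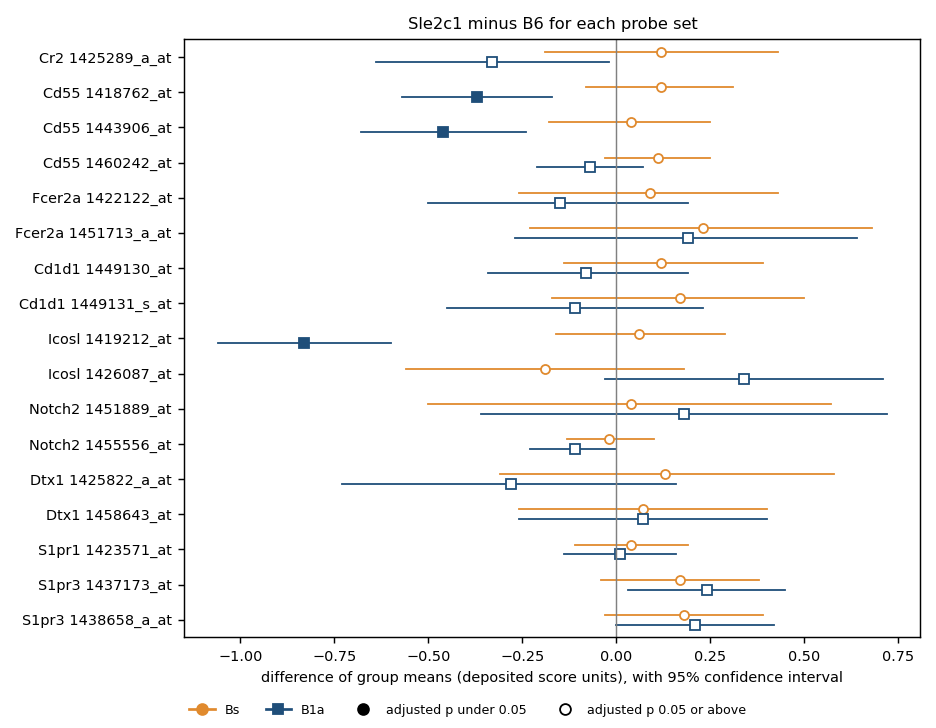
Difference between Sle2c1 and B6 group means for the 17 tested probe sets in Bs (circles) and B1a cells (squares), in score units with 95% confidence intervals from limma; filled marks passed an adjusted p of 0.05. Only Icosl 1419212_at (-0.83) and the Cd55 probe sets 1443906_at (-0.46) and 1418762_at (-0.37) in B1a cells are filled.

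Macrophage markers moved with the strain in B1a cells. Of 13 measured, 6 were lower in Sle2c1 B1a cells and 0 higher, led by Timd4 (-1.75), C1qb (-1.67) and Fn1 (-1.36). Cd14 was not among them, at 2.90 ± 0.431 in B6 and 2.78 ± 0.144 in Sle2c1 B1a cells (SD, n = 4 each). The mean of the 13 was 1.65, 1.27, 1.77 and 2.14 on the B6 B1a arrays and 1.04, 1.04, 1.07 and 1.13 on the Sle2c1 B1a arrays, where Csf1r, C1qb, C1qc and Timd4 were all at or below the floor, so that the Timd4 and C1qb differences are minimal sizes. On B6 B1a arrays 1 to 4, Icosl 1419212_at read 1.68, 1.59, 1.48 and 1.44. In the same order Cd55 1443906_at read 1.92, 1.62, 1.56 and 1.58, and Cd55 1418762_at 2.68, 2.40, 2.21 and 2.21. The part of macrophages in the Icosl and Cd55 differences was not tested.

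**Figure D4:**
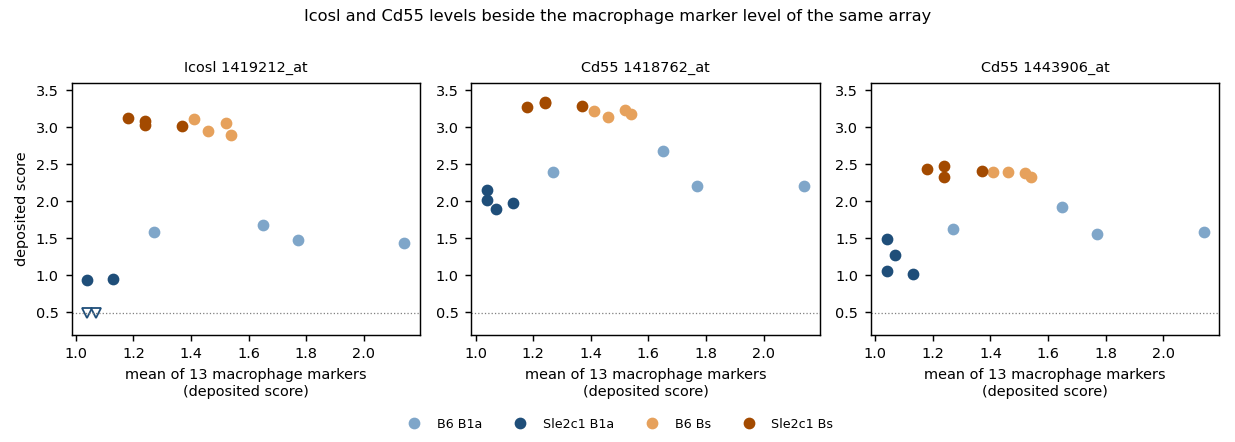
Level of Icosl 1419212_at and of 2 Cd55 probe sets on each array (vertical axis, deposited score) against the mean of 13 macrophage markers on the same array (horizontal axis, deposited score); open triangles are at or below the floor (dotted line). The B6 B1a arrays spread from 1.27 to 2.14 along the horizontal axis with Icosl between 1.44 and 1.68, and the Sle2c1 B1a arrays lie left of them at 1.04 to 1.13.

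The difference between the strain effects in the cell types was tested as an interaction. Icosl 1419212_at was the only member to pass: the strains differed by -0.83 in B1a and by 0.06 in Bs cells, and the signed difference of these (Bs minus B1a) was 0.89 (SE 0.15, 95% confidence interval 0.57 to 1.21, limma adjusted p = 0.0166), where 0.462% of all tested probe sets passed in either direction. It passed in all 16 fits that left out 1 array (adjusted p from 0.00521 to 0.0487), and did not pass with arrays centred on their median (0.93, adjusted p = 0.0618) or without flooring (adjusted p = 0.833). Cd55 gave 0.50 for 1443906_at (SE 0.143, limma adjusted p = 0.259), which passed without Sle2c1 B1a array 1 (0.59, adjusted p = 0.0436), 0.48 for 1418762_at (limma adjusted p = 0.198) and 0.19 for 1460242_at (limma adjusted p = 0.698). The other Icosl probe set, 1426087_at, gave -0.53 (limma adjusted p = 0.639), in the opposite direction. For Cr2 it was 0.45 (SE 0.202, limma adjusted p = 0.623). Whether the strain effect of Cr2 or Cd55 differs between cell types is therefore not settled by these arrays.

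The order of group means was Sle2c1 Bs, B6 Bs, B6 B1a and Sle2c1 B1a for Cr2, all 3 Cd55 probe sets, Fcer2a 1422122_at, both Cd1d1 probe sets, Icosl 1419212_at and Dtx1 1425822_a_at. In that order the Bs neighbours did not pass the test, the step from B6 Bs to B6 B1a passed for each but Dtx1 1425822_a_at, and the last step passed for Icosl and for Cd55 1443906_at and 1418762_at.

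Other genes of the same pathways were mixed. For these lists 1 probe set stood for a gene, and in B6 mice 10.8% of all 15129 genes were higher and 11.0% lower in Bs than in B1a cells, against 14.2% and 12.8% in Sle2c1 mice; the median difference over all genes was 0.01 in both. Of 28 other Notch pathway genes, 6 were higher and 4 lower in B6 mice, and 6 and 5 in Sle2c1 mice (medians -0.02 and 0.03). The feedback inhibitor Nrarp, a Notch target, was higher by 1.39 in B6 (limma adjusted p = 2.68e-06) and 0.78 in Sle2c1 mice (limma adjusted p = 0.000491). The γ-secretase subunit Psenen (-0.51 and -0.53), the DNA-binding partner Rbpj (-0.40 and -0.25) and the receptor Notch1 (-0.50 and -0.28) were lower in Bs cells in both strains. With arrays rescaled in 3 other ways the list had 8 calls in B6 mice (3 to 4 higher) and 5 to 9 in Sle2c1 mice (2 to 4 higher). In Sle2c1 mice it had 6 calls without the 3 arrays that stand apart, and 7 without Sle2c1 B1a array 1 or without Sle2c1 Bs array 3. Across the scalings Nrarp stayed between 1.34 and 1.40 in B6 mice and was called each time, while Rbpj and Notch1 in Sle2c1 mice were called in 2 of 3.

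Of 14 other genes of the sphingosine-1-phosphate pathway, 2 were higher and 3 lower in B6 mice, and 4 higher and 1 lower in Sle2c1 mice (median 0.02 in both). Under the 3 other scalings 2 to 3 of the 14 were called in B6 mice, with none higher, and 3 to 4 in Sle2c1 mice, with 2 higher. In B6 mice 3 were called without the 3 arrays that stand apart, 3 without B6 B1a array 2 or 3 or B6 Bs array 2, and 2 without B6 B1a array 4 or B6 Bs array 4. The lyase Sgpl1 was lower in Bs cells in both strains (-0.43 and -0.58). The transcription factor Klf2, which drives S1pr1 in lymphocytes, was lower by 0.48 in B6 mice (limma adjusted p = 0.0091) and gave -0.26 in Sle2c1 mice (limma adjusted p = 0.11). Cd69, which removes S1PR1 from the surface, gave -0.25 in B6 (limma adjusted p = 0.0196) and 0.03 in Sle2c1 mice (limma adjusted p = 0.781). The phosphatase Sgpp1 gave 0.17 and 0.21, and was called under none of the other scalings.

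Of 10 other complement receptors and regulators, 3 were higher and 1 lower in each strain (medians 0.20 and 0.05). The anaphylatoxin receptor C5ar1 was lower in Bs cells (-1.07 and -1.45) and C3ar1 higher (0.59 and 1.27). Cd46, a cofactor that inactivates complement, was higher by 0.61 in B6 mice; its 0.44 in Sle2c1 mice (limma adjusted p = 0.045) passed in none of the 8 fits that left out 1 array. Cd81, a partner of CD21 in the B cell coreceptor, gave 0.16 and 0.26, and the B6 call ended under each other scaling.

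Of 9 other genes of CD1 lipid presentation, 2 were higher in B6 and 3 in Sle2c1 mice and 0 lower (medians 0.05 and 0.04). The protease Ctss (0.20 and 0.25) and β2-microglobulin, B2m, the partner chain of CD1d (0.22 and 0.21), were among them. Under the other scalings 0 were called in B6 and 0 to 1 in Sle2c1 mice. The lipid transfer protein Gm2a (0.10, limma adjusted p = 0.249) and the galactosidase Gla (0.38, limma adjusted p = 0.28) did not pass in B6 mice; Gm2a was the third gene higher in Sle2c1 mice (0.25, limma adjusted p = 0.00667).

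Of 13 other costimulatory and Fc receptor genes, 4 were higher and 6 lower in B6 mice, and 5 higher and 5 lower in Sle2c1 mice (medians 0.06 and 0.00). The PD-1 ligands Cd274 (-0.66 and -0.58) and Pdcd1lg2 (-0.81 and -0.82) and the inhibitory IgG receptor Fcgr2b (-0.55 and -0.60) were lower in Bs cells. Fcrl1, an Fc receptor-like protein of B cells, was higher (0.74 and 0.80). All 4 kept their calls under the 3 other scalings in both strains.

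Of 11 genes around ADP-ribosyl cyclases and NAD, the pathway of Cd38, 2 were higher and 2 lower in B6 mice, and 2 higher and 3 lower in Sle2c1 mice (medians 0.02 and -0.03). With arrays centred on their median 2 were called in B6 and 3 in Sle2c1 mice. Parp1 was higher (0.32 and 0.40), as was the ectonucleotidase Nt5e, CD73 (0.48 and 0.57). Its partner Entpd1, CD39, was lower (-0.47 and -0.44), and the kinase Nadk gave -0.20 and -0.18. The Nt5e call in B6 mice held in 7 of 8 fits without 1 array, and that of Nadk in Sle2c1 mice in 5 of 8.

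Of 18 other genes known from marginal zone B cells, 8 were higher and 5 lower in B6 mice, and 8 higher and 4 lower in Sle2c1 mice (medians 0.25 and 0.30). The cannabinoid receptor Cnr2 (1.51 and 1.97), the RNA sensor Tlr3 (0.83 and 0.73) and Tm6sf1 (0.54 and 0.69) were higher in Bs cells, and the transcription factor Zeb2 was lower (-0.58 and -0.84). Of 12 other follicular genes, 6 were higher and 1 lower in B6 mice, and 8 higher and 1 lower in Sle2c1 mice (medians 0.29 and 0.44). Among them were Vpreb3 (1.10 and 1.09), the IgM receptor Fcmr (0.35 and 0.40), the transcription factor Bach2 (0.37 and 0.48) and Klf3 (0.28 and 0.54). With arrays centred on their median the follicular count in B6 mice was 2 higher and 0 lower.

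Between the strains, no gene of these 8 lists passed in Bs cells, where 0.152% of all genes did. In B1a cells 0 were higher and 2 lower, against 1.71% and 1.83% of all genes: Nedd4 of the marginal zone list (-0.53, limma adjusted p = 0.0143; chosen for mention after its value was seen) and Klf3 of the follicular list (-0.28, limma adjusted p = 0.0119).

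Markers of other cell types also differed between the preparations, and their part in the member differences was not tested. Of 8 mast cell markers 6 were lower in Bs than in B1a cells of B6 mice and 3 in Sle2c1 mice, with the group mean running from 1.32 to 1.73 in B6 B1a and from 0.53 to 0.68 in B6 Bs arrays. Of 6 natural killer cell markers 4 and 3 were higher in Bs cells, at 0.66 to 0.75 in B6 B1a and 1.39 to 1.78 in B6 Bs arrays. Macrophage markers split, with 2 of 13 higher and 6 lower in B6 and 6 higher and 2 lower in Sle2c1 mice. Of 9 B cell markers 5 and 6 were higher in Bs cells and 0 lower, led in B6 mice by Cd79b (0.32), Ptprc (0.27) and Cd22 (0.23), with medians of 0.17 and 0.19. Under the other scalings 0 to 3 of the 9 were called in B6 mice, so that the higher B cell marker level depends on the scaling. Of 5 follicular dendritic cell markers 0 were higher in Bs cells in either strain, and Cxcl13 was lower in B6 mice (limma adjusted p = 0.0285). The B6 count of this list was 0 to 1 without 1 array and 2 under each other scaling. Mfge8, Clu and Coch lay close to the floor, with means of 0.55, 0.74 and 0.56 in B6 Bs cells. Counts for the other lists were, for plasma cell (2 higher and 2 lower of 6 in B6, 1 and 1 in Sle2c1), T cell (1 and 2 of 8, 1 and 1), dendritic cell (1 and 0 of 6 in both), neutrophil (2 and 2 of 7, 1 and 2), erythroid (2 and 0 of 3, 1 and 0) and endothelial markers (2 and 0 of 3 in both).

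As a description over the 16 arrays, which share 4 groups, the genes whose levels followed each member most closely were listed by Pearson's r. Cd200, an inhibitory surface glycoprotein, was nearest to Cr2 (r = 0.991), followed by Eif4ebp2 and Dock11. Gm30054 was nearest to Icosl (0.993), before Rasgrp3 and Elk3. Rps27 was nearest to Fcer2a (0.990), before Myl4 and Dusp6, and Cdk17 to Cd55 (0.987), before Relch and Usf3. For Notch2 it was Emc4 (0.984), with Midn and Adcy7, for Cd1d1 Tcp11l2 (0.969), with Tlcd1 and Tia1, and for Dtx1 1425822_a_at Csk (0.968), with Homez and Clcn6. S1pr1 was followed by Zw10 (0.914), Lnpk and Ppp4r1l-ps, and S1pr3 by Tmem199 (0.776), Crabp2 and Fam13c. Among the members, Cr2 had an r of 0.98 with Fcer2a and with Icosl over all arrays, which the gap between cell types carries. Within the 8 Bs arrays these were 0.63 and 0.70, and within the 8 B1a arrays 0.53 and 0.80.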

How the data were processed

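Labelled RNA of 16 samples was hybridised to Affymetrix arrays. The authors deposited 1 table of values for 45101 probe sets, of which 64 are array controls; as deposited they are a score, and the software, log base, centring and scaling behind it are not given in the sources used here. No count or depth underlies it, and precision is limited by how many arrays there are. Gene names came from the platform annotation (34958 probe sets with 1 gene, 932 with several, 9211 with none), with symbols updated through a RefSeq gene table that matched 99.42%.

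Values below 0.495 were raised to it. A probe set was tested if 4 or more of the 16 arrays put it over their own 40th percentile (35032 probe sets). These were fitted with limma 3.58.1 in R 4.3.3, 4 group means in 1 model, as two-sided tests; p-values were adjusted by Benjamini-Hochberg across them and called under 0.05. The planned design had taken the values for log2. Exact permutation tests of 4 against 4 arrays (70 arrangements) were two-sided. The fit was tested on simulated data. Every member was named; of each pathway list up to 4 genes with the smallest adjusted p in B6 mice, of marker lists up to 3 with the largest difference, and the 3 genes most like each member. The members and lists were chosen with earlier results of these data known. Alternatives were other floors, filters, scalings, variance models, sets of arrays, a stricter threshold and 1 probe set a gene (the highest mean).

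The labels number the arrays of each group from 1 to 4. Deviations from group means over all tested probe sets correlated between same-numbered B6 Bs and Sle2c1 Bs arrays (0.37, 0.11, 0.60 and 0.43). The numbers were then taken to pair the Bs arrays, a pairing drawn from the data and not from the labels. Differently numbered arrays were not compared, so that these values cannot show that the numbers mark pairs. Over the 24 same-numbered pairs of all groups, 7 exceeded 0.1.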

Additional observations from a re-analysis of the deposited data

Results flagged for a closer look

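Of 66 groups of 4 arrays examined for the members, 8 held an array whose gap to the nearest other exceeded Dixon's critical value. For normal values that are neither floored nor rounded, chance flags about 1 group in 20. That rate does not hold here, since with 3 arrays at the floor any reading above it is flagged. Fcer2a 1422122_at read 1.06 on Sle2c1 B1a array 4, with the other 3 arrays at or below the floor, and 2.69 on B6 Bs array 2, against 2.67 on each of the other 3, a gap of the last printed digit. Fcer2a 1451713_a_at read 0.76 on B6 Bs array 4, against 1.72 to 1.85. Cd55 1443906_at read 1.92 on B6 B1a array 1, against 1.56 to 1.62, and 2.33 on B6 Bs array 3, against 2.38 to 2.39. Cd55 1460242_at read 2.84 on B6 Bs array 4, against 3.05 to 3.09. Cd1d1 1449131_s_at read 0.75 on Sle2c1 B1a array 2, against 1.53 to 1.64. Notch2 1451889_at read 1.08 on B6 Bs array 3, against 0.55 to 0.64.

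For Icosl 1419212_at the difference between strains was -0.83 in B1a and 0.06 in Bs cells. The signed difference of these was 0.89 by the interaction term (limma adjusted p = 0.0166), a call that depends on flooring and on the scaling of the arrays.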

How the results depend on the processing

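Of the alternatives run for single members, 1848 values kept their side of the threshold, 25 lost the call and 3 gained it. Of values called in either fit, 0 reversed direction. Values called in neither fit could change sign and still count among the 1848. Dtx1 1425822_a_at in B6 mice was such a case (Bs minus B1a 0.07, alternatives from -0.03 to 0.17). The 11 higher members of B6 and of Sle2c1 mice became 6 in each where 1 probe set stood for a gene. The 11 probe sets are of 7 genes in each strain. Dtx1 was lost, since its probe set with the highest mean, 1425822_a_at, did not pass in either strain. The 3 strain calls in B1a cells became 1 without flooring, with 1 probe set a gene, with only the 8 arrays compared, with 3 arrays left out together or at a threshold of 0.01. The single interaction call became 0 without flooring, with median centring or at 0.01. Leaving out 1 array gave 11 to 11 members (B6), 11 to 12 (Sle2c1), 0 to 0 (strain in Bs), 1 to 4 (strain in B1a) and 1 to 2 (interaction).

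Over all probe sets, Bs against B1a gave 6984 calls in B6 mice (3560 at 0.01; 4766 to 8953 without 1 array) and 8676 in Sle2c1 mice (4875; 6496 to 9508). The strain in Bs gave 46 calls: 30 with the floor at 1, 18 with quantile normalization, 14 with median centring, 18 with span scaling, 30 with trend and robust variances, 28 without 3 arrays, 28 at 0.01, and 29 to 84 without 1 array. With the replicate block within Bs, added after seeing the data, it was 1. The strain in B1a gave 1231: 657 without flooring, 805 with the floor at 1, 768 with 1 probe set a gene, 630 with the 8 arrays alone, 529 at 0.01, and 833 to 1728. The interaction gave 162: 67 with median centring, 41 with the filter on 8 arrays, 98 with 1 probe set a gene, 19 with trend and robust variances, 55 at 0.01, and 84 to 292. With the replicate number as a block over all 16 arrays the member counts were 11, 11, 0, 3 and 1, unchanged. Span scaling moved the share of higher calls from 53.4% to 42.4% for the strain in B1a and from 82.6% to 72.2% in Bs cells. The cause was not tested, except where fewer probe sets, arrays or a stricter threshold set it. Levels at the floor have no order, which limits Fcer2a, Icosl and Dtx1 in B1a cells.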
